A study of Mus musculus with 9 samples.

Results

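The 36 genes described here encode the folding, quality control and stress-sensing machinery of the endoplasmic reticulum (ER). They were taken by name: 5 stress sensors and transcription factors, 9 chaperones and co-chaperones, 2 lectin chaperones, 4 protein disulfide isomerases, 8 genes of ER-associated degradation, 7 of translocation and signal peptide cleavage, and the modifier Ufm1. All 36 were listed in both deposited tables, which together hold 19305 genes, and all 36 passed the filter on low values. The names were chosen without a threshold on any measured value, but with earlier results of these data known.

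The cells were Lewis lung carcinoma cells (LLC1), a mouse lung cancer line. They were kept for 24 h in contact with T cells of the subset Th9, Th17 or Th0, at 1 T cell per LLC1 cell, and CD4+ cells were then sorted away before RNA was isolated. There were 3 libraries for each of the 3 cocultures, and Th0, by convention T helper cells not steered to a subset, served for comparison. Every group contained T cells, so an effect of T cells as such was not measured, and the T cell subsets were generated in culture. No label states that libraries of 1 group stem from separate cultures, so the p-values measure only the spread between these libraries. Values are normalised read counts, rounded to whole numbers, in 2 tables that were normalised separately, Th9 with Th0 and Th17 with Th0. The same Th0 libraries serve in both.

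Secreted and membrane proteins enter the ER through the Sec61 channel, lose their signal peptide, and fold with the help of chaperones and disulfide isomerases. Proteins that fail to fold are drawn back to the cytosol and degraded. When unfolded protein accumulates, the sensors ATF6, IRE1 (Ern1) and PERK (Eif2ak3) start the unfolded protein response: cleaved ATF6 and spliced XBP1 switch on chaperone and degradation genes, while PERK lowers translation and raises ATF4. Cancer cells are known for relying on this response under a high secretory or metabolic load.

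Many of the chaperone genes are textbook targets of ATF6 and XBP1 through the ER stress response element (ERSE, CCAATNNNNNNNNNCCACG) and ERSE-II (ATTGG, then any 1 base, then CCACG). The RefSeq promoter windows of GRCm38.p6, from 250 bases before to 50 bases after the gene's start, were available for 30 of the 36 genes and were searched on both strands. ERSE was found in 8 of 30 (26.7%) and ERSE-II in 2 of 30 (6.67%), and no gene held both. The shares among 9734 genes tested in Th9 against Th0 that had a window were 0.175% for ERSE and 0.0822% for ERSE-II, and among all 32851 windows 0.119% and 0.0365%. The core of the unfolded protein response element (UPRE, TGACGTGG) was found in 0 of 30, and in 1.09% of the genes tested. ERSE-II starts with the reverse complement of CCAAT and the UPRE core ends in that of CCACG, so matches of different motifs can share bases. The stretches below show the match with 10 bases on each side, on the gene's strand, with the motif in capitals, for genes on which the results turn: 5 that changed beside Th9 cells and 3 that did not pass the test.
Herpud1, ERSE-II, chr8:94386367-94386397, plus strand: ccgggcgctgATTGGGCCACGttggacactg
Calr, ERSE, chr8:84847065-84847103, minus strand: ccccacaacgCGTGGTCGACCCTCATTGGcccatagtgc
Creld2, ERSE, chr15:88819510-88819548, plus strand: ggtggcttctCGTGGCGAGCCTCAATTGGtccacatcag
Dnajc3, ERSE, chr14:118937817-118937855, plus strand: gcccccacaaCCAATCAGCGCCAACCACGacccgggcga
Pdia6, ERSE, chr12:17266481-17266519, plus strand: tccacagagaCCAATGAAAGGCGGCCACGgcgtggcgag
Hspa5, ERSE, chr2:34772015-34772053, plus strand: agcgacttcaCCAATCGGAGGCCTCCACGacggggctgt
Hsp90b1, ERSE, chr10:86705628-86705666, minus strand: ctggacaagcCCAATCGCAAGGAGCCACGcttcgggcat
Canx, ERSE, chr11:50325790-50325828, minus strand: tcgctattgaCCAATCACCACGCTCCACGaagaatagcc
In Calr and Creld2 the element ran opposite to the gene, so that its reverse complement is shown. Hsp90b1 held a further ERSE nearer to its start. The other ERSE-II, in Dnajb11, lay after the gene's start and is not shown. These matches describe letters in a window, not binding.

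The libraries held between 12718928 and 17504764 reads in genes, as recovered from the step size of the values. Among these genes, the value resting on the fewest reads was that of Spcs1 in Th0 replicate 1, with about 107 reads and a counting error of 9.67%. Th0 replicate 1 stood apart. The mitochondrial ribosomal RNAs mt-Rnr1 and mt-Rnr2 and the long RNA Gm26917 held 16.1% to 18.6% of a library in Th9 and 20.7% to 21.8% in Th17, but 31.1% in Th0 replicate 1, against 14.9% and 16.6% in the other Th0 libraries. This library was the lowest of the Th0 libraries in 29 of the 36 genes (80.6%), against 43.8% of all genes tested. For the 36 genes, the counts of calls against Th0 are therefore given with and without it. Genes whose call against Th0 changed without it are named. Most other differences are given with all libraries only. T cell marker transcripts were more abundant in the Th9 cocultures than in Th0, although CD4+ cells had been sorted away. The summed value of 17 T cell markers was 1458 to 2067 in Th9 and 91 to 193 in Th0, at most 0.0157% of a Th9 library, and Cd6 was at 0 in Th0. In the table with Th17, 11 of the 17 were listed, with sums of 60 to 89 in Th17 and 90 to 179 in Th0. Plasma cells also express these ER genes strongly, and of their markers Jchain and Tnfrsf17 were not listed. The summed values of the B and plasma cell markers were 1068 to 1142 in Th9 and 1194 to 1269 in Th0, and 924 to 1036 in Th17 and 1219 to 1300 in Th0. Most of each sum was Sdc1. Without it the sums were 124, 134 and 113 in Th9, against 339, 146 and 99 in Th0, and 26, 32 and 41 in Th17, against 339, 145 and 99 in Th0. They were highest in Th0 replicate 1 and lower in every Th17 library than in any Th0 library, and their part in the results was not tested. Myeloid markers summed to 285 to 328 in Th9 and 237 to 411 in Th0, and to 229 to 249 in Th17 and 241 to 424 in Th0. Of the markers of LLC1 and lung epithelium, Krt8, Krt18 and Vim were present, while Cdh1, Epcam and Nkx2-1 were not listed. Krt8 had 956, 1050 and 1255 in Th9, against 1688, 2470 and 2282 in Th0, so the groups did not overlap. Krt18 had 3031, 3315 and 3452 in Th9 and 3215, 4500 and 4636 in Th0. Vim had 67746, 65637 and 68614 in Th9 and 56024, 81414 and 78914 in Th0. The groups overlapped in both Krt18 and Vim. Sftpc was near 0, with 6, 0 and 2 in Th9 and 0, 1 and 0 in Th0. The listed markers summed to 70002 to 73323 in Th9 and 60927 to 88385 in Th0, the lowest being Th0 replicate 1. They summed to 83516 to 85325 in Th17 and 62662 to 90297 in Th0. Most of each sum was Vim. The part of these differences in the results was not tested. Exons of 12 of the 36 genes overlap another annotated gene, among them Manf, Pdia3, Pdia4, Pdia6, Hsp90b1, Eif2ak3, Spcs1 and Sec61a1. Whether reads were counted by strand is not given in the sources used here, so those values may include a neighbour's reads.

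The abundant end of the set was made up of chaperones and isomerases. Per kilobase of exon, the highest levels in Th9 were those of Hsp90b1 at 3437 ± 110 normalised counts (SD, n = 3), Pdia3 at 3384 ± 108, Hspa5 at 3150 ± 101 and Calr at 3054 ± 96. The same 4 genes led in the Th0 libraries of that table in another order, with Calr at 5082 ± 1153, Pdia3 at 4543 ± 845, Hsp90b1 at 4235 ± 700 and Hspa5 at 3495 ± 366. In Th9, Hsp90b1 and Pdia3 differed by less than the larger of their SDs, as did Hspa5 and Calr. In Th0 the same held for neighbours from Calr to Hsp90b1. It also held there for Hspa5 beside P4hb (3357 ± 521) and Canx (3322 ± 680), so the place of Hspa5 among the 4 was not settled in Th0. At the low end were Ufm1, with 38.9 ± 3.8 in Th9 and 42.1 ± 3.4 in Th0, and Derl2, a channel component of degradation, with 59.6 ± 6.1 and 63.1 ± 5.8. Herpud1, which ties the degradation machinery together at the ER membrane, had 185.5 ± 14.4 in Th9 and 74.4 ± 2.4 in Th0. The plot of levels per kilobase shows the whole range. All annotated exons of a gene, merged, made up its length, so the order of genes depends on the annotation.

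**Figure D1:**
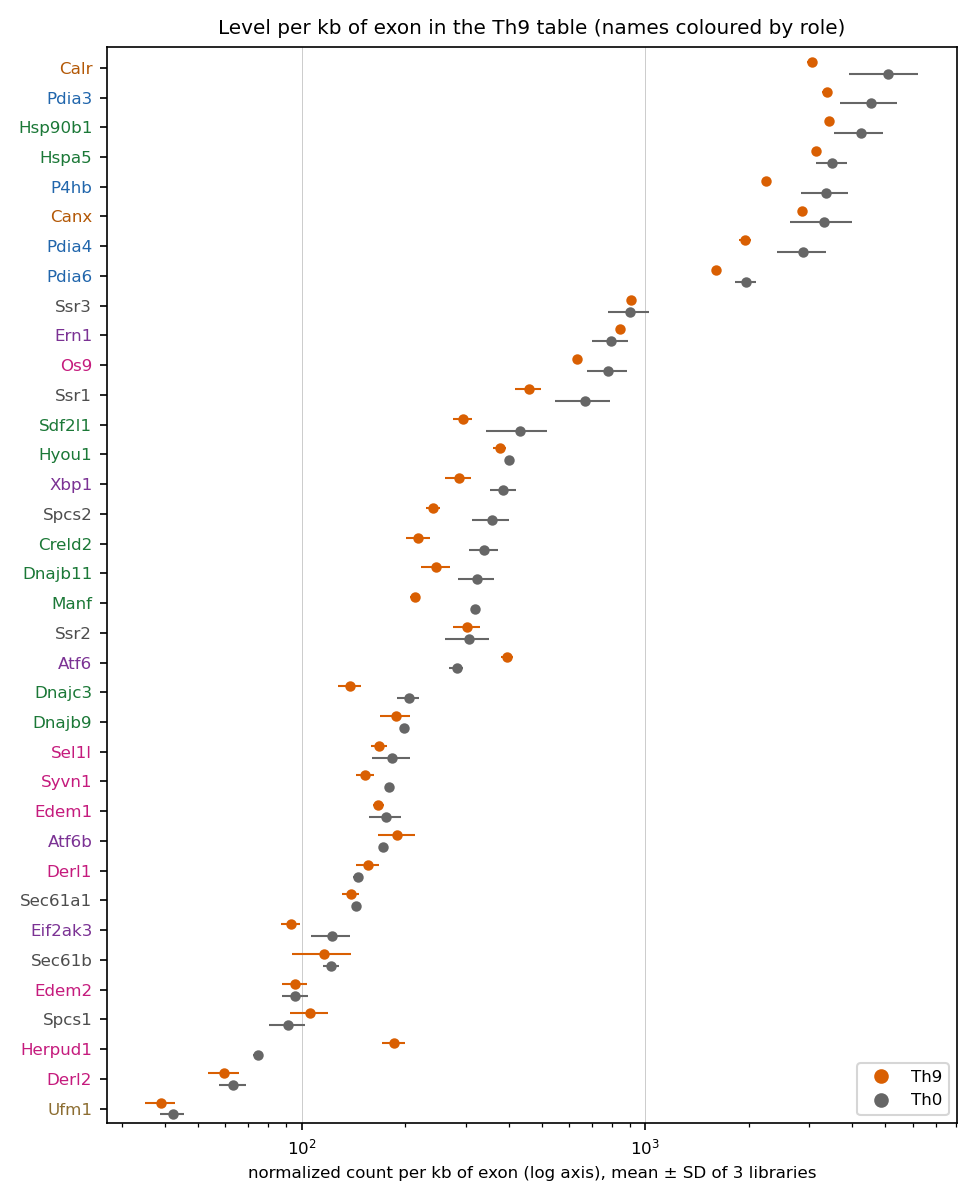
Normalised counts per kilobase of exon (log axis) of the 36 genes, as the mean and SD of the 3 Th9 and the 3 Th0 libraries of the same table. Chaperones and disulfide isomerases sit at the top and Ufm1 at the bottom, and Herpud1 stands at 185.5 in Th9 against 74.4 in Th0.

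With Th9 cells, 10 of the 15 chaperones, lectins and disulfide isomerases fell against Th0, while Herpud1 and Atf6 rose. In Th9 against Th0, 25.2% of all 14475 genes tested passed the threshold (limma-trend, Benjamini-Hochberg adjusted p under 0.05 over all genes), 13.4% higher and 11.9% lower. Of the 36 genes, 2 were higher, 15 were lower and 19 did not pass. All 3 Th9 libraries lay below all 3 Th0 libraries in 16 of the 36, and above them in 2, while over all genes tested these shares were 19.2% below and 21.4% above. The median log2 difference of the 36 was -0.169, against -0.011 over all genes tested, and 28 were below 0. Without Th0 replicate 1, 20 were lower and 2 higher, where 19.1% and 18.1% of all genes were. The number lower was 7 without Th9 replicate 1 and 8 without Th0 replicate 3, where 838 and 1068 of all genes were lower, against 1716 with all libraries. It was 5 when all libraries were set to the same total, where 5.5% of all genes were lower. That scaling also moved the median of all genes to 0.096 and the split of all calls to 2251 higher and 794 lower, from 1937 and 1716. The RNA was measured in bulk, so fewer cells of a kind and less RNA per cell cannot be told apart, and the part of the T cell transcripts in these differences was not tested.

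**Figure D2:**
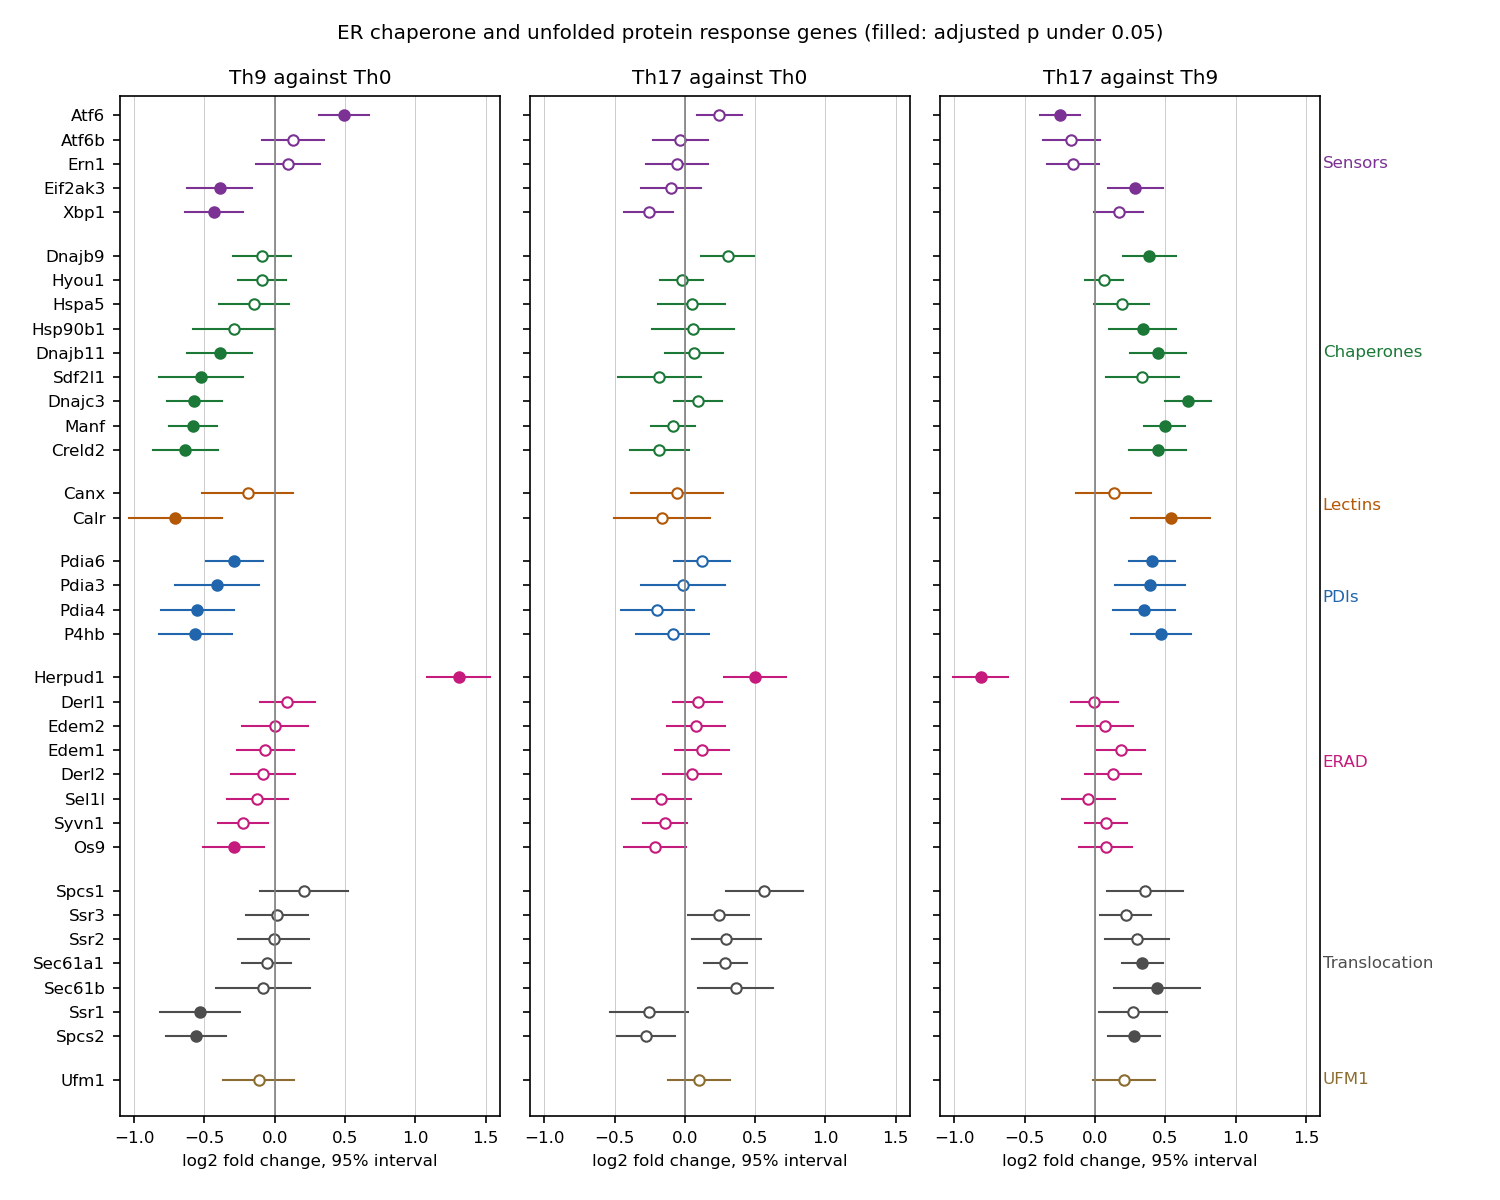
Log2 difference of each of the 36 genes with its 95% interval (horizontal axis) in Th9 against Th0, Th17 against Th0 and Th17 against Th9, with the genes ordered by role and those past the threshold filled. In Th9 against Th0 most genes lie left of 0, with Herpud1 far to the right at 1.31, and in Th17 against Th9 most lie right of 0.

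Among the sensors, Atf6 rose, Xbp1 and Eif2ak3 fell, and Ern1 and Atf6b did not pass. Atf6 (chr1:170704674-170867771, minus strand), the membrane-bound factor that induces chaperones once cleaved, had 3787, 3508 and 3690 normalised counts in Th9, against 2468, 2694 and 2655 in Th0. The groups did not overlap, and the log2 difference was 0.49 ± 0.08 (SE; adjusted p = 0.000985). Xbp1, whose transcript IRE1 splices into an active factor, had 840, 965 and 986 in Th9, against 1130, 1310 and 1322 in Th0. All Th9 libraries were lower (log2 difference -0.43 ± 0.10, adjusted p = 0.00611). Eif2ak3, which encodes PERK, had 527, 599 and 554 in Th9, against 635, 752 and 826 in Th0. It was lower in all 3 Th9 libraries, with a log2 difference of -0.39 ± 0.11 (adjusted p = 0.0181). Ern1, which encodes IRE1, had 6870, 6732 and 7120 in Th9 and 6892, 5614 and 6981 in Th0. The groups overlapped, with a log2 difference of 0.10 and a 95% interval of -0.13 to 0.32 (adjusted p = 0.545). Atf6b, a relative of Atf6, had 589, 523 and 459 in Th9 and 477, 473 and 478 in Th0, which also overlapped (log2 difference 0.13, adjusted p = 0.383). The values cannot tell spliced from unspliced Xbp1, nor cleaved from intact ATF6. The call of Xbp1 ended without Th9 replicate 1 (adjusted p = 0.0527) and at the same total per library (0.102). That of Eif2ak3 ended without Th9 replicate 1 (0.0965), Th9 replicate 3 (0.0648) or Th0 replicate 3 (0.0841), and at the same total (0.176).

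Among the chaperones, 5 partners of BiP and related ER proteins fell, while BiP, the Hsp70 of the ER, did not pass. Of 9 genes 5 were lower, 0 were higher, and all 9 log2 differences were below 0. Manf (chr9:106838312-106891979, minus strand), a secreted cofactor of BiP, had 738, 782 and 736 in Th9, against 1097, 1150 and 1133 in Th0. Every Th9 library was far under every Th0 library, a level that fell by 33.2% (log2 difference -0.58 ± 0.08, adjusted p = 0.000218). Dnajc3, the co-chaperone P58IPK, had 691, 772 and 667 in Th9, against 985, 1138 and 1041 in Th0. It was 1.49-fold lower with no overlap (log2 difference -0.57 ± 0.09, adjusted p = 0.000727). Creld2, an ER protein induced by stress, had 276, 296 and 323 in Th9, against 437, 439 and 517 in Th0. Its groups also stood apart, at a 1.55-fold lower level (log2 difference -0.64 ± 0.11, adjusted p = 0.000987). Sdf2l1, which works with BiP and Dnajb11, had 316, 314 and 351 in Th9, against 368, 509 and 554 in Th0. The Th0 library closest to Th9 was replicate 1 (log2 difference -0.52 ± 0.14, adjusted p = 0.0157). Dnajb11, an Hsp40 partner of BiP, was lower (log2 difference -0.39, adjusted p = 0.0184). Hspa5, which encodes BiP itself, had 12893, 13744 and 13326 in Th9 and 13313, 16398 and 14635 in Th0. The groups overlapped, with a log2 difference of -0.15 and a 95% interval of -0.40 to 0.10 (adjusted p = 0.39). Hsp90b1 (GRP94), Hyou1 (GRP170) and Dnajb9 (ERdj4) did not pass either, with log2 differences of -0.29, -0.09 and -0.09. Without Th0 replicate 1, Hspa5 passed as lower (log2 difference -0.22, adjusted p = 0.0124), as did Hsp90b1 (-0.43, adjusted p = 2.85e-05). The call of Sdf2l1 ended without Th9 replicate 1 (adjusted p = 0.0693), Th9 replicate 2 (0.0696), Th0 replicate 2 (0.0548) or Th0 replicate 3 (0.0728), and at the same total (0.0921). The call of Dnajb11 ended without Th9 replicate 1 (0.0739), Th9 replicate 3 (0.0904), Th0 replicate 2 (0.0554) or Th0 replicate 3 (0.0807), and at the same total (0.173).

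Calreticulin and all 4 disulfide isomerases were lower with Th9 cells. Calr (chr8:84841850-84846934, minus strand), the soluble lectin chaperone that binds calcium and glycoproteins, had 8475, 8943 and 8964 in Th9, against 10823, 16903 and 16178 in Th0. It was lower in every Th9 library, 1.63-fold (log2 difference -0.71 ± 0.15, adjusted p = 0.00527), and more so without Th0 replicate 1 (log2 difference -0.91 ± 0.06, adjusted p = 2.6e-09). Canx, its membrane-bound relative, had 13258, 13397 and 13620 in Th9 and 11907, 17260 and 17599 in Th0. Here Th0 replicate 1 lay below the Th9 libraries and the other Th0 libraries above them (log2 difference -0.19, adjusted p = 0.372), and without that library Canx passed as lower (-0.38, adjusted p = 5.62e-05). P4hb, the founding protein disulfide isomerase, had 6290, 6381 and 6659 in Th9, against 7939, 10816 and 10057 in Th0. Pdia4 had 4473, 4721 and 4862 in Th9, against 5624, 7626 and 7503 in Th0. Both were lower without overlap, with log2 differences of -0.56 ± 0.12 (adjusted p = 0.00449) and -0.55 ± 0.12 (adjusted p = 0.00522). Pdia6, which also acts on the sensors, had 5931, 6137 and 5943 in Th9, against 6884, 7887 and 7234 in Th0. Pdia3, the isomerase that works with Calr and Canx, had 10483, 10373 and 11008 in Th9, against 11235, 16180 and 15369 in Th0. Their log2 differences were -0.29 ± 0.09 (adjusted p = 0.0384) and -0.41 ± 0.14 (adjusted p = 0.0468). Both calls ended when any of Th9 replicates 1, 2 and 3 or Th0 replicates 2 and 3 was left out, with adjusted p of 0.093 to 0.167 for Pdia6 and 0.108 to 0.165 for Pdia3. At the same total per library none of the 4 isomerases passed (adjusted p = 0.0684 for P4hb, 0.0718 for Pdia4, 0.415 for Pdia6 and 0.291 for Pdia3), while Calr still did.

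**Figure D3:**
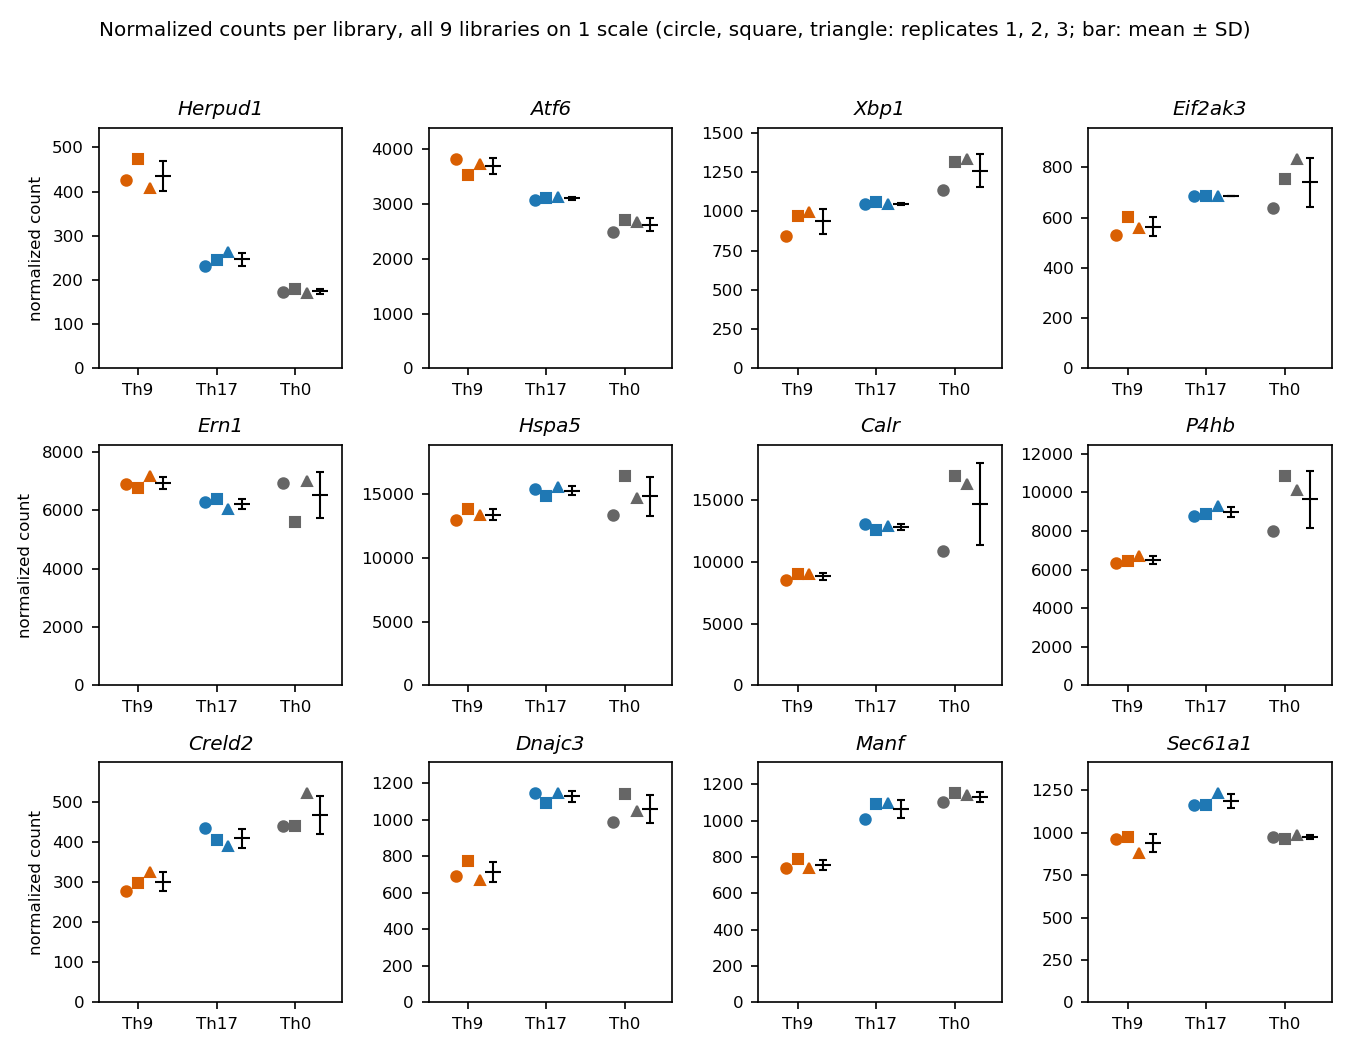
Normalised counts of 12 of the 36 genes in each of the 9 libraries (points; the marker shape gives the replicate, the bar the mean and SD), with Th9, Th17 and Th0 from left to right and all libraries on 1 scale. Herpud1 is at 408 to 473 in Th9, 233 to 262 in Th17 and 171 to 180 in Th0, and for Calr Th0 replicate 1 lies at 10879, below the other Th0 libraries.

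Degradation genes followed no common direction with Th9 cells. Herpud1 (chr8:94386438-94395377, plus strand), a membrane protein that organises the HRD1 complex, had 423, 470 and 405 in Th9, against 171, 180 and 170 in Th0. This was the largest change of the 36 genes, 2.48-fold higher (log2 difference 1.31 ± 0.10, adjusted p = 3.99e-06). Os9, the lectin that selects glycoproteins for degradation, had 1680, 1638 and 1672 in Th9, against 1737, 2236 and 2179 in Th0. It was lower (log2 difference -0.29 ± 0.10, adjusted p = 0.0482), a call that ended when any library other than Th0 replicate 1 was left out (0.119 to 0.164), with no filter on low values (0.0517) and at the same total (0.389). Syvn1, the ubiquitin ligase HRD1, had 718, 719 and 797 in Th9, against 862, 876 and 877 in Th0. Its groups did not overlap, but it missed the threshold (log2 difference -0.23, adjusted p = 0.0588), which it passed without Th0 replicate 1 (adjusted p = 0.02). Sel1l, the partner of HRD1, had 1416, 1368 and 1524 in Th9 and 1340, 1651 and 1722 in Th0. The groups overlapped (log2 difference -0.12, adjusted p = 0.411), and without Th0 replicate 1 it passed as lower (-0.23, adjusted p = 0.0115). The mannosidase-like Edem1 and Edem2 and the channel proteins Derl1 and Derl2 had log2 differences between -0.08 and 0.09 and overlapping groups.

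In translocation, 2 of 7 genes fell. Spcs2 (chr7:99837569-99863462, minus strand), a subunit of the signal peptidase, had 963, 1028 and 1059 in Th9, against 1298, 1589 and 1635 in Th0. Ssr1, a subunit of the translocon-associated TRAP complex, had 4468, 4628 and 5247 in Th9, against 5510, 7450 and 7941 in Th0. Neither overlapped, with log2 differences of -0.56 ± 0.10 (adjusted p = 0.00136) and -0.53 ± 0.13 (adjusted p = 0.0116). The call of Ssr1 ended without Th9 replicate 1 (adjusted p = 0.0727), Th9 replicate 2 (0.0609) or Th0 replicate 3 (0.0553), and at the same total (0.104). Spcs1, a further peptidase subunit, had 185, 143 and 163 in Th9 and 123, 156 and 145 in Th0. Sec61a1, the channel itself, had 960, 970 and 873 in Th9 and 969, 962 and 979 in Th0. Both overlapped and did not pass, with log2 differences of 0.21 (adjusted p = 0.316) and -0.06 (adjusted p = 0.654). Sec61b, Ssr2 and Ssr3 lay between -0.08 and 0.02. Ufm1, a ubiquitin-like modifier used at ER-bound ribosomes, had 243, 247 and 206 in Th9 and 238, 274 and 240 in Th0, with overlapping groups (log2 difference -0.11, adjusted p = 0.516).

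The calls of Atf6, Calr, Creld2, Dnajc3, Herpud1, Manf and Spcs2 in Th9 against Th0 held under each of the 13 alternatives run, 7 of the 17 calls. Among the 10 genes with an ERSE or ERSE-II, 5 were lower and 1 was higher, with a median log2 difference of -0.287. Of the 2 with an ERSE-II, Herpud1 was higher and Dnajb11 lower. Among the 20 with neither, 9 were lower, with a median of -0.118. Over all genes tested, 11.9% were lower and 13.4% higher.

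With Th17 cells, only Herpud1 passed the threshold against Th0 when all libraries were used. In Th17 against Th0, 1.58% of all 14342 genes tested passed, 1.19% higher and 0.39% lower. Of the 36 genes, 1 was higher, 0 were lower and 35 did not pass, with a median log2 difference of 0.018 against -0.005 over all genes. All 3 Th17 libraries lay above all Th0 libraries in 8 of the 36 and below them in 5, where over all genes the shares were 12.8% above and 10.6% below. Herpud1 had 238, 252 and 268 in Th17, against 176, 184 and 175 in Th0. The groups did not overlap, with a log2 difference of 0.50 ± 0.10 (adjusted p = 0.0356). The call ended without Th17 replicate 1 (adjusted p = 0.139), Th17 replicate 2 (0.181), Th17 replicate 3 (0.233) or Th0 replicate 3 (0.132). It also ended at the same total per library (0.0745), which split all calls into 119 higher and 20 lower, from 170 and 56.

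No sensor or chaperone passed the threshold in Th17 against Th0 when all libraries were used. Atf6 had 3141, 3170 and 3181 in Th17, against 2538, 2752 and 2725 in Th0, and Xbp1 had 1072, 1081 and 1066, against 1162, 1338 and 1356. Atf6 was above and Xbp1 below every Th0 library, but neither passed (log2 differences 0.24 and -0.26, adjusted p = 0.115 and 0.132). Eif2ak3 had 702, 701 and 702 in Th17 and 653, 768 and 848 in Th0. Ern1 had 6420, 6530 and 6177 in Th17 and 7088, 5736 and 7164 in Th0, and both genes overlapped (log2 differences -0.10 and -0.06). Hspa5 had 15760, 15224 and 15897 in Th17 and 13692, 16753 and 15018 in Th0. It did not pass, with a log2 difference of 0.05 and a 95% interval of -0.19 to 0.29. Dnajb9, a J-domain cofactor of BiP, had 677, 581 and 673 in Th17, against 524, 512 and 524 in Th0. Creld2 had 445, 413 and 397 in Th17, against 449, 449 and 530 in Th0. Dnajb9 lay above and Creld2 below all Th0 libraries without passing (log2 differences 0.30 and -0.18, adjusted p = 0.105 and 0.342). Manf also lay below all Th0 libraries without passing (log2 difference -0.08, adjusted p = 0.595).

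Lectins and isomerases of the Th17 cocultures overlapped with Th0. Calr had 13374, 12897 and 13142 in Th17, and 11131, 17268 and 16602 in Th0. Canx had 15804, 14868 and 14752 in Th17, and 12246, 17634 and 18060 in Th0. In both, the Th17 libraries lay above Th0 replicate 1 and below the other Th0 libraries (log2 differences -0.16 and -0.06, adjusted p = 0.633 and 0.879). Pdia4, an isomerase with several thioredoxin-like domains, had 6451, 6088 and 5887 in Th17 and 5784, 7791 and 7700 in Th0. Pdia6 had 8562, 7907 and 8056 in Th17 and 7080, 8057 and 7423 in Th0. The groups overlapped in both (log2 differences -0.20 and 0.12). Os9 had 1941, 1747 and 1731 in Th17 and 1786, 2284 and 2236 in Th0, with a log2 difference of -0.21 (adjusted p = 0.301).

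In translocation, 5 of 7 genes lay above Th0 with Th17 cells without passing. In Spcs1, Sec61a1, Sec61b, Ssr2 and Ssr3 all Th17 libraries were above all Th0 libraries, and in Spcs2 all were below. Over all genes tested, 12.8% lay above in this way and 10.6% below. Spcs1 had 234, 202 and 209 in Th17, against 127, 160 and 149 in Th0. Its log2 difference of 0.57 ± 0.12 had an adjusted p of 0.0506, just short of the threshold. It passed under 6 of the 13 alternatives, among them without Th0 replicate 1 (0.0091) or Th0 replicate 2 (0.0438). At the same total it did not pass (0.0875), and the highest adjusted p among the alternatives was 0.266. Sec61a1 had 1192, 1191 and 1259 in Th17, against 997, 983 and 1004 in Th0 (log2 difference 0.29, adjusted p = 0.0709). Ufm1 had 267, 263 and 294 in Th17 and 245, 279 and 246 in Th0, which overlapped (log2 difference 0.10).

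The number of calls in Th17 against Th0 rested on Th0 replicate 1. Without it, 5 of the 36 genes were higher and 11 lower in Th17 than in Th0, where 6.85% and 9.7% of 14209 genes tested were, and the median of the 36 was -0.031. The 5 higher were Herpud1 (log2 difference 0.49, adjusted p = 0.00407), Spcs1 (0.47, adjusted p = 0.0091), Dnajb9 (0.31, adjusted p = 0.0158), Sec61a1 (0.29, adjusted p = 0.00383) and Atf6 (0.21, adjusted p = 0.00954). Those lower included Ssr1 (-0.41, adjusted p = 0.000137), Spcs2 (-0.38, adjusted p = 0.00066), Calr (-0.37, adjusted p = 0.000278), Pdia4 (-0.34, adjusted p = 0.000695) and Xbp1 (-0.33, adjusted p = 0.00118). Sdf2l1, Os9, Sel1l, Canx, P4hb and Pdia3 were lower as well, with log2 differences between -0.35 and -0.17. Where replicate 1 was left out, Th0 rested on 2 libraries.

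**Figure D4:**
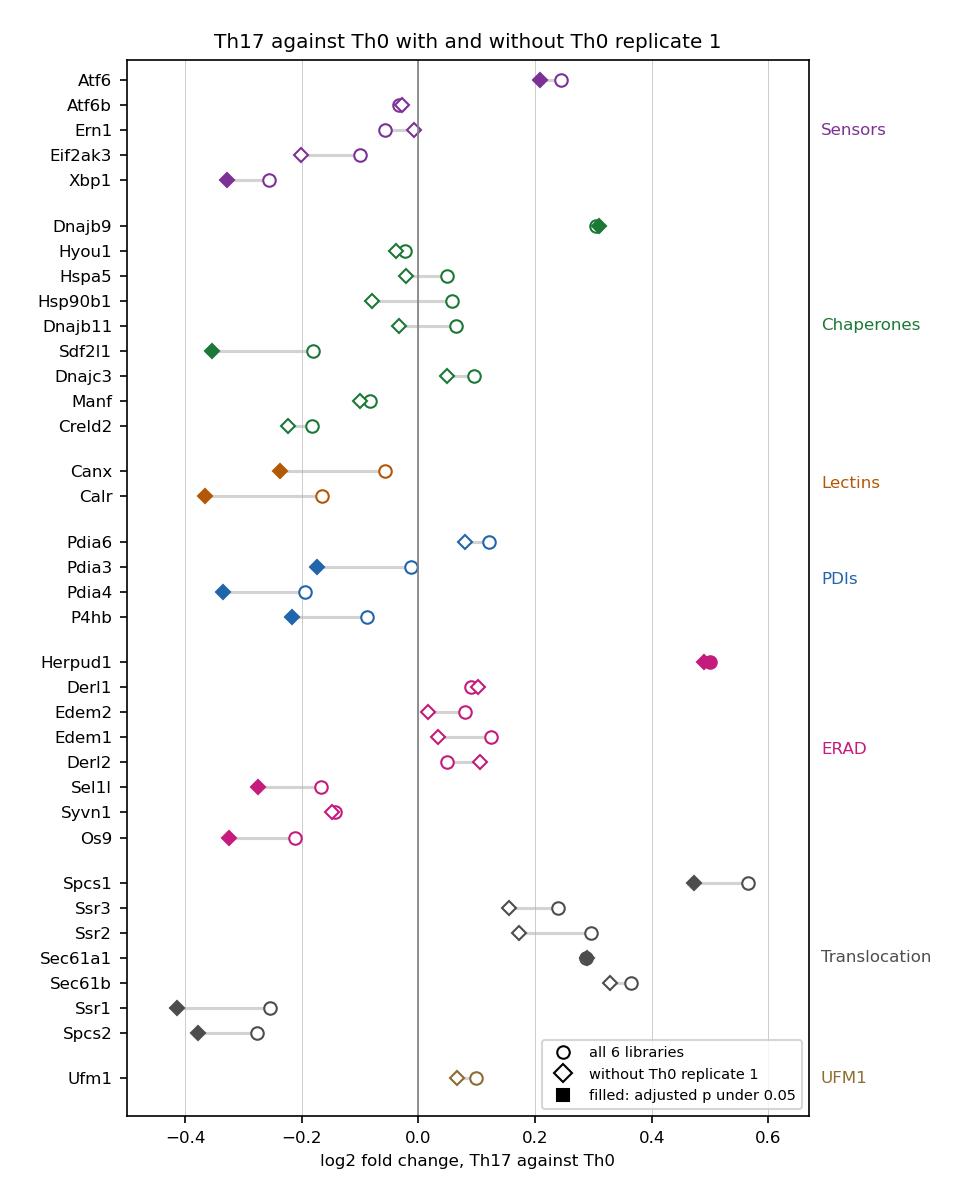
Log2 difference in Th17 against Th0 (horizontal axis) of the 36 genes, 1 per row and ordered by role, with all 6 libraries (circles) and without Th0 replicate 1 (diamonds), filled where past the threshold. The count past the threshold is 1 with all libraries and 16 without that library, 5 higher and 11 lower.

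Th17 and Th9 cocultures were compared directly, since both comparisons with Th0 share the same Th0 libraries and cannot show a difference between them. Both tables were brought to 1 scale for this, and the values below are on it. In Th17, 6 of 9 chaperones, 4 of 4 isomerases and 3 of 7 translocation genes were higher than in Th9, and Herpud1 and Atf6 were lower. Of the 36 genes 15 were higher and 2 lower, where 9.8% and 11.0% of all 14372 genes tested were (20.8% in either direction). At the same total per library all calls split into 681 higher and 1680 lower, from 1409 and 1584, and 4 of the 36 were higher. All Th17 libraries lay above all Th9 libraries in 25 of the 36, against 22.5% of all genes, and below them in 3, against 22.5%. The median log2 difference was 0.274, against 0.013 over all genes. The T cell markers differed between these cocultures too, and their part in the differences was not tested.

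Herpud1 had 233, 246 and 262 normalised counts in Th17, against 425, 473 and 408 in Th9. It was 1.76-fold lower, without overlap (log2 difference -0.81 ± 0.09, adjusted p = 1.51e-05). Atf6 had 3071, 3098 and 3114 in Th17, against 3807, 3531 and 3716 in Th9, a log2 difference of -0.25 ± 0.07 (adjusted p = 0.0138). Of the sensors Eif2ak3 was higher, with 686, 685 and 687 in Th17, against 530, 603 and 558 in Th9 (log2 difference 0.29 ± 0.09, adjusted p = 0.0378). Ern1 had 6277, 6382 and 6047 in Th17, against 6906, 6775 and 7170 in Th9. All Th17 libraries were lower, but the difference did not pass (log2 difference -0.16, adjusted p = 0.243). The call of Atf6 ended without Th9 replicate 1 (adjusted p = 0.0758) or Th17 replicate 1 (0.0561), 2 (0.0577) or 3 (0.0512). That of Eif2ak3 ended without Th9 replicate 1 (0.156), Th9 replicate 3 (0.1), Th17 replicate 1 (0.101), 2 (0.104) or 3 (0.104), and at the same total (0.29).

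Dnajc3 had the largest rise of the 36, with 1145, 1095 and 1145 in Th17, against 695, 777 and 672 in Th9. It was 1.58-fold higher (log2 difference 0.66 ± 0.08, adjusted p = 1.92e-05). Manf had 1010, 1094 and 1097 in Th17, against 742, 787 and 741 in Th9 (log2 difference 0.49 ± 0.07, adjusted p = 8.47e-05). Both groups of libraries stood apart in both genes. Dnajb11, Creld2, Dnajb9 and Hsp90b1 were higher as well, with log2 differences of 0.45, 0.45, 0.39 and 0.34. The remaining chaperones, Hspa5, Sdf2l1 and Hyou1, did not pass, at 0.19, 0.34 and 0.06. Calr had 13076, 12604 and 12864 in Th17, against 8520, 9000 and 9026 in Th9, 1.45-fold higher (log2 difference 0.54 ± 0.13, adjusted p = 0.00848). All 4 isomerases were higher: P4hb by 0.47 (adjusted p = 0.00341), Pdia6 by 0.40 (adjusted p = 0.00147), Pdia3 by 0.39 (adjusted p = 0.0266) and Pdia4 by 0.35 (adjusted p = 0.0244). Any single Th9 or Th17 library, left out, ended the calls of Hsp90b1 (adjusted p = 0.085 to 0.151), Pdia3 (0.0588 to 0.101) and Pdia4 (0.0509 to 0.109). At the same total per library Calr (0.078), Dnajb9 (0.0545), Hsp90b1 (0.291) and the 4 isomerases (0.0641 to 0.22) did not pass.

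Sec61a1 had 1165, 1164 and 1232 in Th17, against 965, 976 and 879 in Th9, a log2 difference of 0.34 ± 0.07 (adjusted p = 0.00235). Sec61b and Spcs2 were higher by 0.44 (adjusted p = 0.0395) and 0.28 (adjusted p = 0.0319), and the Th17 and Th9 libraries of Sec61b overlapped. Spcs1, Ssr1, Ssr2 and Ssr3 did not pass, with log2 differences of 0.36, 0.27, 0.30 and 0.22, although their groups stood apart. The call of Spcs2 ended when any single Th9 or Th17 library was left out (adjusted p = 0.0519 to 0.138). That of Sec61b ended without Th9 replicate 1 (0.0791), Th9 replicate 3 (0.185), Th17 replicate 1 (0.177) or Th17 replicate 3 (0.112). At the same total neither passed, nor did Sec61a1 (0.0755). Creld2, Dnajb11, Dnajc3, Herpud1 and Manf kept their calls in Th17 against Th9 under each of the 17 alternatives. Without Th9 replicate 3, Th17 replicate 1 or Th17 replicate 3 the number higher was 9, where 1028, 876 and 888 of all genes were higher, against 1409 with all libraries. Without Th0 replicate 1 it was 24, where 2243 of all genes were. Leaving out Th9 replicate 1 or any Th17 library left Herpud1 as the 1 gene lower.

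A further 109 genes of the same pathway were listed by function, of which 107 were tested. In Th9 against Th0, 11 were higher (10.3%, against 13.4% of all genes) and 13 lower (12.1%, against 11.9%). In Th17 against Th0, 2 were higher and 1 lower (1.87% and 0.935%, against 1.19% and 0.39%). In Th17 against Th9, 18 were higher and 9 lower (16.8% and 8.41%, against 9.8% and 11.0%). The RNA of Atf4, the factor translated when PERK is active, rose with Th9 cells. It had 6842, 6909 and 6744 in Th9, against 3611, 4463 and 4253 in Th0 (log2 difference 0.74 ± 0.10, adjusted p = 0.000202). The ATF4 targets Ddit3 (CHOP) and Ppp1r15a (GADD34, which restores translation) rose by 0.64 (adjusted p = 0.00395) and 0.48 (adjusted p = 0.00688). Translation of ATF4 and activity of PERK were not measured. The RNA of PERK (Eif2ak3) was lower with Th9 cells (log2 difference -0.39), a call that did not hold under every alternative. Mbtps2, the protease that releases ATF6 from the membrane, rose by 0.55 (adjusted p = 0.00061). Of the 16 genes of signalling, 4 were higher and 1 lower. Of the 38 further folding genes, 3 were higher and 5 lower. Ero1l, the oxidase that recharges disulfide isomerases, had 1766, 1718 and 1975 in Th9, against 698, 891 and 707 in Th0. It rose by 1.26 (adjusted p = 6.84e-06), opposite to the isomerases. Erp29, Fkbp2 and Mogs were lower, with log2 differences of -0.64, -0.80 and -0.37. Among 27 tested degradation genes 2 were higher and 2 lower, among them Rhbdd1 (0.78), Vimp (-0.78) and Selk (-0.68). Among 19 of translocation 1 was higher and 3 lower. Sec61g, the small channel subunit, had 49, 74 and 38 in Th9, against 143, 98 and 91 in Th0 (log2 difference -1.05 ± 0.25, adjusted p = 0.00857). Sec11c was at 0.43, Srp9 at -0.38 and Ostc at -0.40. Of the 7 UFMylation genes Ddrgk1 (-0.58) and Ufc1 (-0.35) were lower and Ufsp2 (0.33) higher. In Th9 against Th0, 11 of these named genes kept their call under every alternative. Mogs lost it at the same total per library alone (adjusted p = 0.158). The others lost it when single libraries were left out, Sec11c without Th9 replicate 2 (0.0766). Selk lost it without Th9 replicates 1 or 2 or Th0 replicates 2 or 3 (0.0931 to 0.123), and Srp9 without any single Th9 library or Th0 replicate 2 (0.0517 to 0.0961). Ostc and Ufc1 lost it without any library other than Th0 replicate 1 (0.0679 to 0.102 and 0.0533 to 0.106), and Ufsp2 without any Th9 library or Th0 replicate 3 (0.083 to 0.15). At the same total Selk (0.0788), Srp9 (0.119), Ostc (0.181) and Ufc1 (0.208) did not pass either.

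With Th17 cells, 0 of the 16 signalling genes rose and 1 fell, Ppp1r15a, with 693, 650 and 702 in Th17, against 856, 995 and 1109 in Th0 (log2 difference -0.53 ± 0.10, adjusted p = 0.026). Ganab, the catalytic subunit of glucosidase II, was higher, with 3299, 2979 and 3114 in Th17, against 2376, 2171 and 1989 in Th0 (log2 difference 0.53 ± 0.09, adjusted p = 0.0142). Tram2, a translocon-associated protein, was higher by 0.40 (adjusted p = 0.0274). Each of these 3 calls ended when any Th17 library or Th0 replicate 3 was left out (adjusted p = 0.0708 to 0.181), and that of Ppp1r15a also without Th0 replicate 2 (0.0518). At the same total Ppp1r15a (0.122) and Tram2 (0.106) did not pass either. Directly against Th9, Ppp1r15a had 678, 635 and 687 in Th17, against 1238, 1303 and 1509 in Th9, a log2 difference of -1.01 ± 0.10 (adjusted p = 2.68e-06). Atf4 (-0.78), Ddit3 (-0.95) and Ero1l (-1.22, adjusted p = 2.59e-07) were lower too. Creb3l1, an ATF6-like factor at low values here, was higher by 1.11 (adjusted p = 0.000717). Rhbdd1 (-0.54) and Sec11c (-0.57) were lower and Vimp (0.64), Tram2 (0.56) and Fkbp2 (0.52) higher in Th17 than in Th9. Txndc11 (0.40) and Srp9 (0.48) were higher as well, and Tmx4 (-0.35) and Aup1 (-0.34) lower. These calls of Th17 against Th9 held under all 17 alternatives. Ostc (0.38) was higher too, a call that ended without Th9 replicate 3 or Th17 replicates 2 or 3 (adjusted p = 0.06 to 0.0743) and at the same total (0.148).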

How the data were processed

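RNA of 9 libraries was measured, 3 each of LLC1 cells with Th9, Th17 or Th0 cells. The authors deposited a score for each gene, a normalised read count rounded to a whole number, in 2 tables normalised separately. This was read from the values: each Th0 library differs between the tables by 1 factor. STAR 2.4.0a, featureCounts 1.4.5-p1, Subread and DESeq2 1.62 with mm10 and GRCm38 are named without role or order per the submitters' processing notes, and the library kit keeps strand per the labels' protocols. No column of values was left unused (0).

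As the values are not counts, limma-trend (limma 3.58.1, R 4.3.3) was applied to log2(value + 1) with group as the only term. Genes entered it from a mean value of 10 upwards. A fold change is on that scale. A call is a Benjamini-Hochberg adjusted p under 0.05 over all genes tested. Th17 against Th9 used all 9 libraries, scaled together by the median of ratios over 17107 genes, with Th0 from the table with Th9. The test was checked on simulated data in which no library stood apart, unlike Th0 replicate 1 here. Approximate reads are the value times a size factor recovered from the steps between values. Counting errors cover counting only.

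Levels per kilobase used the exons of GENCODE M21, gene coordinates are those of the tables (GRCm38), and promoter windows are those of RefSeq. The genes, roles, lists and tests were chosen with earlier results of these data known. Values per library were given for Atf6, Ern1, Eif2ak3, Xbp1 and Hspa5 and, in each role, for up to 4 genes with the smallest adjusted p in Th9 against Th0 and up to 2 in Th17 against Th0. In Th17 against Th9, genes were chosen for this after their values were seen. Up to 4 called genes were named for each list of other pathway genes, apart from some not reported here. Alternatives were an added constant of 5, no filter or a mean of at least 50, 2 other scalings, array weights, the replicate number as a block, each library left out, and for Th17 against Th9 the 6 libraries of those groups alone.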

Additional observations from a re-analysis of the deposited data

Results flagged for a closer look

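Between the Th17 and the Th9 cocultures 17 of the 36 genes differed by the direct test of Th17 against Th9 (limma-trend, adjusted p from 1.51e-05 to 0.0411). Of all genes tested, 20.8% did. The direct test concerns the difference between their responses against the shared Th0 libraries. Of the 17 calls, only those of Creld2, Dnajb11, Dnajc3, Herpud1 and Manf held under every alternative run. Herpud1 (log2 difference -0.81) and Atf6 (-0.25) were lower in Th17, in 3 of 3 libraries each. Higher in Th17 were Dnajc3 (0.66), Calr (0.54), Manf (0.49), P4hb (0.47), Dnajb11 (0.45), Creld2 (0.45), Sec61b (0.44), Pdia6 (0.40), Pdia3 (0.39), Dnajb9 (0.39), Pdia4 (0.35), Hsp90b1 (0.34), Sec61a1 (0.34), Eif2ak3 (0.29) and Spcs2 (0.28). Apart from Sec61b, each of these had all 3 Th17 libraries above all 3 Th9 libraries. Over all genes tested, 22.5% lay above in this way and 22.5% below. T cell marker transcripts also differed between these cocultures, with sums of 60 to 89 over 11 markers in Th17 and 1458 to 2067 over 17 markers in Th9, and their part in these differences was not tested.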

How the results depend on the processing

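No called gene of the 36 turned its direction under any alternative run, and the median of the 36 stayed between -0.247 and -0.061 in Th9 against Th0 (13 alternatives), -0.035 and 0.065 in Th17 against Th0 (13) and 0.194 and 0.277 in Th17 against Th9 (17). The number of calls did depend on the processing, and the cause was not tested. With all libraries set to the same total, 5 of the 36 genes were lower in Th9 than in Th0 (all genes: 794 lower), 0 were higher in Th17 than in Th0 (all genes: 119 higher and 20 lower) and 4 were higher in Th17 than in Th9 (all genes: 681 higher and 1680 lower). This scaling moved the median of all genes to 0.096, 0.019 and -0.067 in these comparisons, and that of the 36 genes to -0.061, 0.041 and 0.194. With the total taken without mt-Rnr1, mt-Rnr2 and Gm26917, 345 genes were higher and 102 lower in Th17 than in Th0, 4 of the 36 higher. With array weights, 3302 genes were higher and 3326 lower in Th9 than in Th0. In Th17 against Th0 array weights gave 1572 higher and 1789 lower, and 7 and 11 of the 36, and in Th17 against Th9 2489 and 2492, with 23 of the 36 higher. Without a filter, or with a mean of at least 50, 2 of the 36 were higher in Th17 than in Th0, Spcs1 being added. With the 6 Th17 and Th9 libraries alone, 2315 genes were higher and 2439 lower in Th17 than in Th9, 24 of the 36 higher. Leaving out single libraries gave, in Th9 against Th0, 1015 to 2594 genes higher and 838 to 2742 lower, and 2 to 2 and 7 to 20 of the 36. In Th17 against Th0 it gave 14 to 974 higher and 2 to 1378 lower, and 0 to 5 and 0 to 11 of the 36. In Th17 against Th9 it gave 876 to 2243 higher and 1086 to 2296 lower, and 9 to 24 and 1 to 2 of the 36. The replicate numbers were not shown to pair libraries: the deviations of same-numbered libraries correlated at 0.11, -0.01 and 0.15 for Th9 with Th0 and -0.05, -0.08 and 0.04 for Th17 with Th0, and not every library correlated best with its own number. With the replicate block, 2 of the 36 were higher and 15 lower in Th9 than in Th0 (all genes: 2114 and 1962), 0 and 0 in Th17 than in Th0 (186 and 76; Herpud1 at adjusted p = 0.0561, Tram2 at 0.0523), and 16 and 2 in Th17 than in Th9 (1343 and 1522). Depth limited Spcs1 and Sec61b most.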

Other observations

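Summed over the 36 genes, the normalised counts were 111867, 114506 and 116026 in Th9, against 118909, 154005 and 149474 in Th0, and 142016, 138825 and 141190 in Th17, against 122296, 157336 and 153388 in Th0. The sums follow the most abundant chaperones and isomerases. Ighm, the heavy chain of IgM, was listed at 75, 68 and 67 in Th9 and 191, 61 and 48 in Th0, which overlapped. It was at 4, 2 and 2 in Th17 against 196, 63 and 49 in Th0. Igkc had 1, 5 and 2 in Th9 against 46, 15 and 11 in Th0, without overlap. Ms4a1 had 3, 3 and 2 in Th9 against 16, 10 and 7 in Th0, also without overlap. The remaining listed B and plasma cell markers overlapped between Th9 and Th0.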
